A study of Mus musculus with 6 samples.

Results

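The genes described here are the cytosolic ribosomal protein genes of mouse stomach fibroblasts. They were taken by symbol: Rpl or Rps with a number and an optional a, x, l or y ending, the acidic proteins Rplp0, Rplp1 and Rplp2, and Rpsa, without pseudogene rows (-ps) and Rps6 kinases. The rule found 81 genes among the 14228 in the deposited table, 48 of the large and 33 of the small ribosomal subunit. In the GENCODE vM21 annotation 79 of them are protein coding, while Rpl32l and Rps4l are processed pseudogenes, so the name covers the set except for these 2 rows. Rpl26 and the copies Rpl3l, Rpl10l and Rpl39l were not analysed here. All mice were triple-transgenic iLgr5;GLI2A animals, a gastric cancer model that drives activated GLI2, a Hedgehog factor, from Lgr5-expressing cells, and were 8 weeks old. Cancer-associated fibroblasts (CAF, n = 3 libraries) came from mice given tamoxifen in corn oil by gavage over 5 days, followed by 3 weeks of doxycycline chow, with doxycycline in sweetened drinking water during the first 3 days. Normal fibroblasts (n = 3 libraries) came from mice with the same transgenes that were given corn oil and no doxycycline, so the drugs and the cancer cannot be told apart. Cells were sorted as live, podoplanin-positive and negative for CD31, CD45 and EpCAM. The CAF libraries pooled 1, 2 and 2 mice and the normal libraries 1, 1 and 2 mice. RNA was counted by MARS-seq, which reads the 3′ ends of polyadenylated transcripts, so a level is not scaled by transcript length.

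Each cytosolic ribosome is built from ribosomal RNA and a near-fixed set of proteins, most of them encoded by 1 active gene each and made in matched amounts. Their mRNAs are among the most abundant in any growing cell, and they share a 5′ terminal oligopyrimidine (TOP) tract, a run of C and T bases at the transcription start through which mTOR and Larp1 control their translation. Ribosome output in fibroblasts is known to follow growth signals such as mTOR and Myc.

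The start sites show what the genes share outside the counts. RefSeq start windows (GRCm38.p6) were matched for 60 of the 81 genes, each running from 10 bases before the annotated first base to 20 bases from it. An uninterrupted run of at least 6 C or T bases on the gene's strand was found in 38 of 60 (63.3%), against 32.1% of the 27025 genes with such a window. Counted from a C, which may stand inside a longer run, a stretch of at least 6 such bases was found in 36 of 60 (60.0%). Over all genes it was 24.9%. On the other strand the order was the opposite, 16.7% against 35.7%. The windows below are printed 5′ to 3′ on the gene's strand, with the longest such run in capitals and the annotated first transcribed base at position 11. Rpl35, Rplp2, Rps6 and Rpl38 are shown as clear examples, and Rpl15, Rpl22l1 and Rpl39 because their levels differed most between libraries.
Rpl35, chr2:39005112-39005141 (-): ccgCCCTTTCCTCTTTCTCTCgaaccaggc
Rplp2, chr7:141447641-141447670 (+): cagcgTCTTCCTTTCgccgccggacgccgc
Rps6, chr4:86857348-86857377 (-): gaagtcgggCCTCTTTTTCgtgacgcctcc
Rpl38, chr11:114668570-114668599 (+): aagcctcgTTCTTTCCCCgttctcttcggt
Rpl15, chr14:18270967-18270996 (-): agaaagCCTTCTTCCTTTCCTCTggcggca
Rpl22l1, chr3:28805498-28805527 (+): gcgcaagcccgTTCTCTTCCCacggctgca
Rpl39, chrX:37085203-37085232 (-): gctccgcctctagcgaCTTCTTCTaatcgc

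The run was 18 bases in Rpl35 and 17 in Rpl15, and 8 in Rpl39, where it began 7 bases into the annotated transcript. No run of at least 6 bases stood in the windows of Rpl36a, Rps3a1, Rpl10 or Rpl5. These 4 were picked from the genes with the smallest p-values described further on, and not all of those genes lacked a run. Rpl32l and Rpl35a had runs of 10 and 13 bases. In Rps25, Rps28, Rpl22 and Rpl13 the longest run was 4, 4, 5 and 4 bases. No match says only that these letters are not in the window, which depends on the annotated start.
Rpl36a, chrX:134585644-134585673 (+): cccaggcaccgcctataaacttccgttgcg
Rps3a1, chr3:86142649-86142678 (-): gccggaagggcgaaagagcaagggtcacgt
Rpl10, chrX:74270806-74270835 (+): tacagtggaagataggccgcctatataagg
Rpl5, chr5:107900518-107900547 (+): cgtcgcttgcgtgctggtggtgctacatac

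Over the 300 bases around the start (250 before, 50 after), searched on both strands, the ETS-type motif GGAAGT was found in 29 of 60 (48.3%) against 26.5% of all genes. Its longer form CCGGAAGT, which contains GGAAGT, was found in 11 (18.3%) against 4.31%. The TOP-like letters CTTTCC were found in 30 (50.0%) against 29.3%. The TATA-box letters TATAAA were found in 8 (13.3%) against 15.7%. These matches describe letters and were not tested as binding sites.

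The total count was between 644522 and 6422568 in the CAF libraries and between 768420 and 3259644 in the normal libraries, with 11627 to 14118 genes detected in each. Normal libraries 1 and 2 stood apart: gland transcripts (29 genes of pit, neck, chief, parietal and enteroendocrine cells) made up 20.2% and 16.6% of their counts, against 4.20% in normal library 3 and 0.635% to 0.880% in the CAF libraries. The 16 fibroblast markers took 1.71% to 5.16% of the counts in CAF and 0.708% to 2.76% in normal libraries, and all 16 had counts in every library, as did 26 to 29 of the 29 gland genes. Pdpn, the sorted-for podoplanin, was at 27.5, 120 and 117.8 CPM in CAF and 5.66, 33.9 and 18.6 CPM in normal libraries (edgeR adjusted p = 0.202). Epcam, which was sorted against, was at 113 to 230 CPM in CAF and 13.6 to 148 CPM in normal libraries, while Ptprc and Pecam1, the genes of CD45 and CD31, stayed under 10 CPM. CPM are counts scaled by edgeR to a common library total. In bulk samples, fewer cells of a type and less RNA per cell cannot be told apart.

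Ribosomal protein transcripts made up 7.31% to 12.2% of each library, and the groups overlapped. They took 12.2%, 10.7% and 11.1% of all counts in CAF libraries 1, 2 and 3 (11.4% ± 0.789, SD, n = 3), and 8.41%, 7.31% and 12.1% in normal libraries 1, 2 and 3 (9.28% ± 2.52, SD, n = 3). Normal library 3 stood with the CAF libraries, and the 2 normal libraries with most gland RNA were lower. With gland genes taken out of the total, the shares were 12.3%, 10.8% and 11.2% in CAF and 10.5%, 8.75% and 12.6% in normal libraries, a group mean of 11.4% ± 0.782 against 10.6% ± 1.95 (SD, n = 3). The part that gland RNA has in the remaining gap was not tested. Both subunits varied alike over libraries: large-subunit genes took 7.02%, 6.01% and 6.14% in CAF and 4.90%, 4.05% and 6.94% in normal libraries. Small-subunit genes took 5.23%, 4.70% and 5.00% in CAF and 3.50%, 3.25% and 5.18% in normal libraries.

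**Figure D1:**
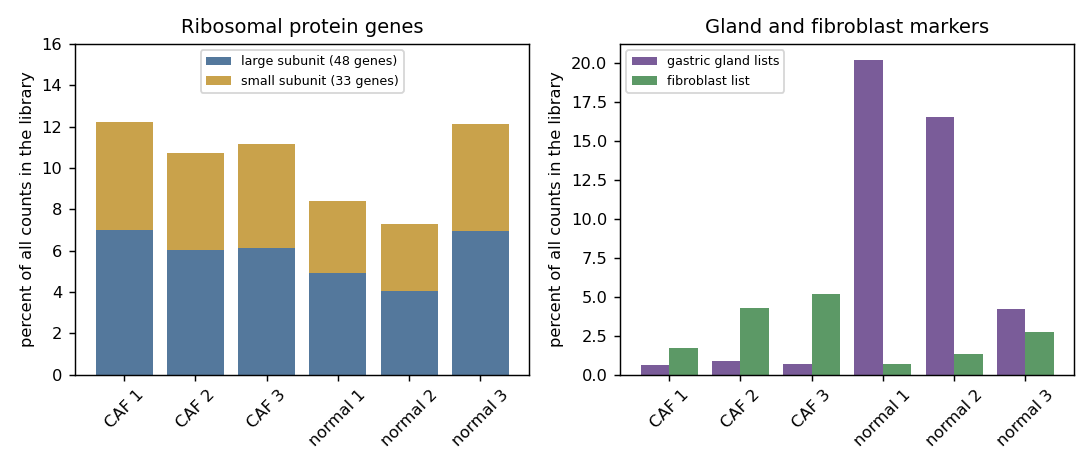
Left, percent of all counts in each library taken by the 48 large-subunit and 33 small-subunit genes (stacked bars, 1 bar per library). Right, percent taken by the 29 gland genes and the 16 fibroblast genes; the ribosomal shares are lowest in normal libraries 1 and 2, where gland genes take 20.2% and 16.6%.

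The question put to these genes was whether any of them differed between CAF and normal fibroblasts. None of the 76 that had enough counts to be tested passed edgeR's quasi-likelihood test at an adjusted p of 0.05 (Benjamini-Hochberg over 10148 genes), where 1.1% of all genes tested did (0.897% higher and 0.207% lower in CAF). None was under an unadjusted p of 0.05 either, against 15.3% of all genes. With DESeq2, which called 7.8% of all genes, 0 of the 76 were called and only Rps3a1 had an unadjusted p under that value (17.3% of all genes did). With limma-voom, which called 0.641% of all genes, 0 were called and only Rpl32l had such an unadjusted p (19.4% of all genes did). The authors' deposited table lists 0 of the 81 genes with an adjusted p under 0.05, and the smallest there was 0.370 (Rps3a1).

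The fold changes were close to 0. In 35 genes the fitted log2 fold change (CAF over normal) was above 0 and in 41 below, with a median of -0.02 against 0.06 over all genes tested. The middle 50% of the ribosomal protein genes lay between -0.18 and 0.17, against -0.41 to 0.56 over all genes, and the range ran from -1.33 (Rpl32l) to 0.84 (Rpl5). The median was -0.01 over 46 large-subunit and -0.05 over 30 small-subunit genes. The median standard error was 0.36, smaller than the 0.50 over all genes tested, at a median level of 1214 CPM against 27.7 CPM. For 33 of the 76, 31 of them among the 65 genes over 300 CPM, the 95% interval of the fold change lay inside a 2-fold change in either direction, against 11.2% of all genes tested. For the other genes a change of 2-fold was not excluded at this depth and number of libraries.

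**Figure D2:**
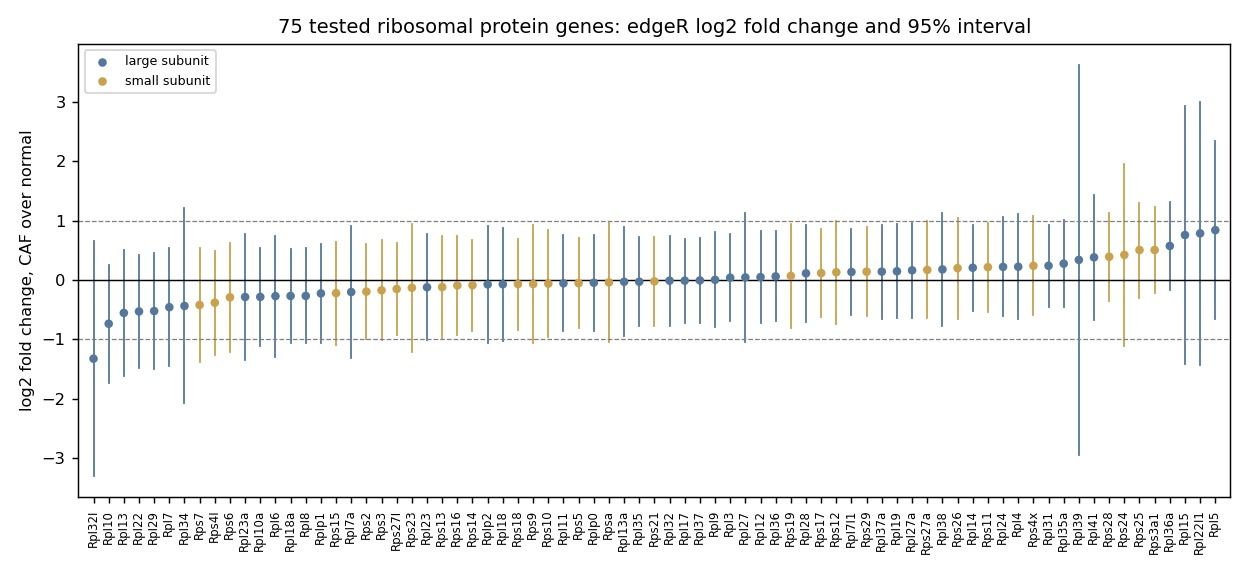
Log2 fold change (CAF over normal, y axis) of 75 tested genes in order of size, with 95% intervals from the edgeR fit and subunits in colour; dashed lines mark a 2-fold change. Every interval includes 0, and the widest is that of Rpl39.

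The genes with the smallest p-values in the higher direction were Rpl36a, Rps3a1, Rps25, Rpl5, Rps28 and Rpl35a. Rpl36a, a large-subunit protein near the exit site of transfer RNA, was at 697, 445 and 505 CPM in CAF libraries and 411, 357 and 336 CPM in normal libraries. All 3 CAF libraries lay above all 3 normal libraries, and the log2 fold change was 0.57 ± 0.32 (SE; edgeR adjusted p = 0.462). Rps3a1, a small-subunit protein that contacts initiation factor eIF3, was at 1498, 1850 and 1858 CPM in CAF and 1128, 1300 and 1237 CPM in normal libraries. Its groups did not overlap either, with a log2 fold change of 0.51 ± 0.32 (edgeR adjusted p = 0.529). The CAF libraries lay above the normal ones also in Rpl14 and Rpl31, so this held for 4 of the 76 genes, where it held for 10.6% of all genes tested. Rpl14, a surface protein of the large subunit, was at 1815, 1837 and 1878 CPM against 1709, 1462 and 1618 CPM. Rpl31, at the rim of the exit tunnel, was at 966, 1063 and 1015 CPM against 951, 771 and 856 CPM. In both, the gap between the closest libraries of the groups was smaller than the spread within normal libraries.

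The other genes of that rank overlapped between groups. Rps28, at the mRNA exit side of the small subunit, was at 1111, 903 and 1150 CPM in CAF and 796, 948 and 666 CPM in normal libraries (log2 fold change 0.39 ± 0.32; edgeR adjusted p = 0.647). Rpl35a, one of the genes mutated in Diamond-Blackfan anaemia, was at 564, 431 and 561 CPM against 491, 340 and 452 CPM (0.28 ± 0.31; edgeR adjusted p = 0.754). In each of them 1 CAF library fell among the normal ones.

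In the lower direction the smallest p-values belonged to Rpl10, Rpl32l, Rpl22, Rpl29, Rpl13 and Rpl7. Rpl10, which is added late to the large subunit and reaches towards the peptidyl transferase centre, was at 753, 775 and 738 CPM in CAF and 1311, 635 and 1833 CPM in normal libraries. The CAF libraries were nearly equal, normal library 2 lay below them and the other 2 normal libraries above, and the log2 fold change was -0.74 ± 0.43 (edgeR adjusted p = 0.496). Rpl13 had the same order, with 1531, 1197 and 1115 CPM in CAF and 1962, 918 and 2763 CPM in normal libraries (-0.55 ± 0.46; edgeR adjusted p = 0.654). Rpl29 did too, with 1110, 829 and 763 CPM against 1448, 697 and 1735 CPM (-0.52 ± 0.42; edgeR adjusted p = 0.642). In all 3 of these large-subunit genes normal library 2 was the lowest of the 6 libraries. Rpl7 was low in CAF library 1, at 324 CPM, against 719 and 682 CPM in the other CAF libraries and 850, 527 and 997 CPM in normal libraries (-0.46 ± 0.43; edgeR adjusted p = 0.697). Rpl32l, a pseudogene by annotation, was at 14.5, 3.01 and 2.68 CPM in CAF and 13.3, 5.02 and 22.3 CPM in normal libraries, low in the same 3 libraries that are named below for Rpl39 (-1.33 ± 0.86; edgeR adjusted p = 0.543). The log2 fold change of Rpl32l rests on single libraries: it was -2.24 without CAF library 1, -0.82 without CAF library 2 and -0.80 without CAF library 3.

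The stalk proteins recruit elongation factors to the ribosome, and their genes had the highest median level of the lists by position. Rplp1, with the highest mean of all 81 genes, was at 4696, 4755 and 4948 CPM in CAF and 5578, 5009 and 6248 CPM in normal libraries. In CPM every CAF library was below every normal library, the only tested ribosomal protein gene of which this held, against 9.35% of all genes tested. As a share of the raw library total, without the scaling factor, the groups overlapped. The log2 fold change was -0.23 ± 0.36 (edgeR adjusted p = 0.834). Its partner Rplp2 was at 3682, 2122 and 1850 CPM in CAF and 2914, 1944 and 3195 CPM in normal libraries (-0.07 ± 0.42; edgeR adjusted p = 0.965). Rplp0, which anchors both to the ribosome and is often used as a reference gene, was at 2397, 2308 and 2111 CPM in CAF and 2960, 1922 and 2151 CPM in normal libraries (-0.05 ± 0.35; edgeR adjusted p = 0.972). Rpl12, at the stalk base, was at 2158, 1961 and 2011 CPM against 1916, 1609 and 2398 CPM (0.05 ± 0.34; edgeR adjusted p = 0.970). In Rplp0, Rplp2 and Rpl12 the groups overlapped, and the median log2 fold change of the 4 stalk genes was -0.06.

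Rpl41 and Rpl13a also had some of the highest means. Rpl41, the smallest ribosomal protein, was at 7019 CPM in CAF library 1, above the 3397 and 3171 CPM of the other CAF libraries and the 4337, 2966 and 3115 CPM of the normal libraries. Its log2 fold change of 0.38 ± 0.45 (edgeR adjusted p = 0.767) turned to -0.08 without CAF library 1. Rpl13a, known for a role outside the ribosome in silencing inflammatory mRNAs, was at 3998, 2727 and 2469 CPM against 3346, 2252 and 3783 CPM (-0.03 ± 0.40; edgeR adjusted p = 0.985). Both genes overlapped between groups.

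As none of the tested genes was called, no list by position in the ribosome could hold a called gene, and the lists are only described. At the peptidyl transferase centre, 3 genes had a median log2 fold change of -0.27, from -0.74 (Rpl10) to 0.04 (Rpl3). Around the peptide exit tunnel, 7 genes had a median of 0.15, from -0.29 (Rpl23a) to 0.34 (Rpl39). At the mRNA entry and decoding side of the small subunit, 4 genes had a median of -0.18, from -0.22 (Rps15) to -0.13 (Rps23), and at the mRNA exit side 5 genes had one of -0.04, from -0.09 (Rps14) to 0.39 (Rps28). All these medians were smaller in size than 0.36, the median standard error of a single gene's log2 fold change. That value does not measure the error of a median over genes from the same libraries, and the medians were not tested. The 10 tested genes mutated in Diamond-Blackfan anaemia, an inherited failure of red cell production, had a median of 0.16, from -0.42 (Rps7) to 0.84 (Rpl5).

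Rpl5 and Rpl11 form a complex with 5S ribosomal RNA that can bind Mdm2 and so stabilise p53. They were listed at very different levels although the ribosome holds 1 of each. Rpl11 was at 1620, 1316 and 1307 CPM in CAF and 1805, 1077 and 1524 CPM in normal libraries (log2 fold change -0.06 ± 0.35; edgeR adjusted p = 0.969). Rpl5 was at 5.80, 19.8 and 18.1 CPM in CAF and 7.27, 15.0 and 3.71 CPM in normal libraries (0.84 ± 0.64; edgeR adjusted p = 0.620). Both overlapped between groups, and the Rpl5 values rest on 317 counts in all.

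Proteins studied for signalling or for selective translation were next. Rps6, the phosphorylation target of the mTOR pathway, was at 319, 351 and 330 CPM in CAF and 591, 224 and 406 CPM in normal libraries (log2 fold change -0.29 ± 0.40; edgeR adjusted p = 0.801). Rps25, needed for some internal ribosome entry sites, was at 487, 298 and 436 CPM against 359, 221 and 279 CPM (0.51 ± 0.34; edgeR adjusted p = 0.568). Rps6 was even across the CAF libraries and spread over normal libraries, whereas Rps25 varied in both. Rpl38, linked to translation of Hox mRNAs, was at 1544, 689 and 835 CPM against 1094, 736 and 877 CPM (0.18 ± 0.41; edgeR adjusted p = 0.894). Rpl10a was at 888, 805 and 738 CPM against 1181, 647 and 1131 CPM (-0.28 ± 0.35; edgeR adjusted p = 0.776). Rps27a, made as a fusion with ubiquitin, was at 813, 1369 and 1303 CPM against 861, 1053 and 1184 CPM (0.17 ± 0.35; edgeR adjusted p = 0.880). The groups overlapped in all 5.

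Several core genes have a second copy whose product can take their place. Rpl22l1, the copy of Rpl22, was at 20.3, 68.7 and 91.5 CPM in CAF and 8.89, 92.8 and 8.67 CPM in normal libraries (log2 fold change 0.79 ± 0.96; edgeR adjusted p = 0.772). Rpl22 itself, which represses its copy in other cells, was at 23.2, 50.6 and 58.9 CPM in CAF and 58.2, 52.7 and 85.4 CPM in normal libraries (-0.53 ± 0.41; edgeR adjusted p = 0.625). CAF library 1 was low in both, and normal libraries 1 and 3 were low only in the copy. Rps27l, a p53 target, was at 258, 159 and 140 CPM in CAF and 224, 206 and 184 CPM in normal libraries (-0.15 ± 0.34; edgeR adjusted p = 0.892). Its core gene Rps27 had so few counts that it was not tested. Rpl7l1, a copy of Rpl7 that acts in ribosome assembly, was at 59.4, 52.2 and 44.7 CPM against 57.0, 47.7 and 35.9 CPM (0.14 ± 0.31; edgeR adjusted p = 0.895).

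The other core genes of such pairs overlapped between groups as well. Rps4x was at 369, 481 and 688 CPM in CAF and 481, 332 and 490 CPM in normal libraries (log2 fold change 0.24 ± 0.36; edgeR adjusted p = 0.823). The row Rps4l, annotated as a transcribed pseudogene, was at 33.3, 35.7 and 57.7 CPM against 75.6, 47.7 and 42.1 CPM (-0.38 ± 0.38; edgeR adjusted p = 0.714). Rpl3, at the peptidyl transferase centre, was at 949, 1116 and 1191 CPM against 1257, 928 and 983 CPM (0.04 ± 0.32; edgeR adjusted p = 0.974). In these 3 genes the spread within each group was wider than the gap between the group means.

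Within groups the libraries differed more than the groups did. Taking each tested gene against its own mean over 6 libraries, the median log2 level was 0.09, -0.12 and -0.10 in CAF libraries 1, 2 and 3 and 0.10, -0.36 and 0.14 in normal libraries 1, 2 and 3. Normal library 2 held the lowest value of 44 of the 76 genes. CAF library 1 held the highest value of 24 genes and normal library 3 that of 26, while normal library 2 held it for 2. Without normal library 2 the median log2 fold change of the genes tested was -0.16, and without both gland-rich normal libraries, which leaves normal library 3 alone, it was -0.12, where that of all genes was 0.29. Over the whole table those fits called 6 and 0 genes, so that 0 ribosomal protein genes called there says nothing about stability.

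A small number of genes split the libraries across the groups. Rpl39, a short protein that lines the exit tunnel (chrX:37082520-37085402, minus strand, GRCm38), was at 10.1, 201 and 260 CPM in CAF and 12.5, 359 and 9.91 CPM in normal libraries. CAF libraries 2 and 3 and normal library 2 were thus 19.9 to 36.2 times as high as the other libraries of their own group. Its log2 fold change of 0.34 had a standard error of 1.42, the largest among these genes (edgeR adjusted p = 0.948). Rpl22l1 (chr3:28805436-28807424, plus strand) was high in the same 3 libraries, by 3.39 to 10.7 times, and Rpl5 by 2.07 to 4.05 times. These 3 genes were over 2-fold higher in all 4 such pairs of libraries of 1 group, as were 7.41% of all genes tested. Rpl15, a core protein of the large subunit, was high there too, at 29.2, 22.9 and 18.8 CPM, but also reached 13.3 CPM in normal library 1, against 1.45 and 1.24 CPM in CAF library 1 and normal library 3.

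The libraries also differed in base composition along the same split. The mean GC content of the counted transcripts, over 13858 genes outside the ribosomal and gland lists, was 53.9%, 52.7% and 52.7% in CAF libraries and 53.7%, 53.1% and 53.9% in normal libraries. The 3 libraries with high Rpl39 thus had the lowest means. Over the last 300 bases of the transcripts alone the means were 46.7%, 44.5% and 44.3% in CAF and 47.6%, 46.6% and 46.1% in normal libraries, where normal library 2 did not lie below normal library 3. The GC content of the Rpl39 transcript is 48.7%, and that of Rpl22l1, Rpl5 and Rpl15 is 40.6%, 42.7% and 43.2%. Genes with a GC content below that of Rpl39 but without this split include Rps27l (44.9%), Rps23 (46.0%) and Rpl31 (46.0%). A fit with the library mean over whole transcripts as a covariate was added after seeing the data. In it the log2 fold changes of Rpl39, Rpl22l1, Rpl5 and Rpl15 turned from 0.34, 0.79, 0.84 and 0.76 to -1.61, -0.17, -0.15 and -1.23. This covariate is lowest in the 3 libraries with high Rpl39, so the shift is no test of base composition. Over the 76 tested genes the transcript GC content had a Spearman correlation of -0.30 with the log2 fold change, as a description, since all genes share the same 6 libraries. The part of base composition in these levels was not tested.

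**Figure D3:**
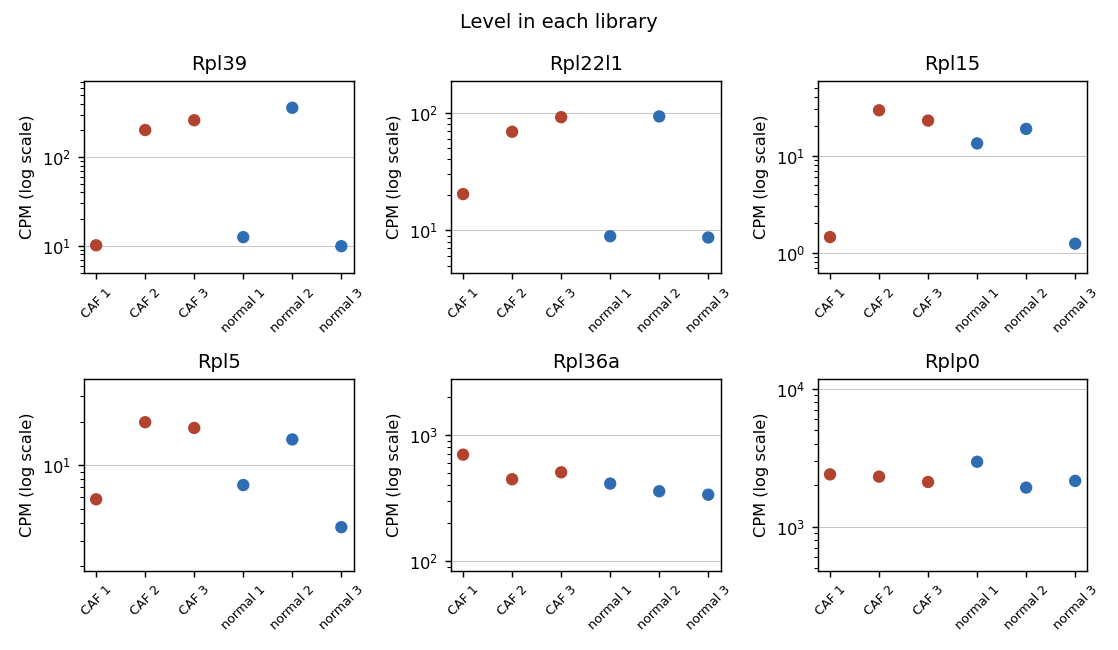
CPM (log scale, y axis) in each library of Rpl39, Rpl22l1, Rpl15 and Rpl5, and for contrast Rpl36a and Rplp0; red points are CAF and blue points normal libraries. Rpl39 and Rpl22l1 are high in CAF libraries 2 and 3 and normal library 2, while Rplp0 stays between 1922 and 2960 CPM.

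Although each ribosome needs 1 copy of nearly every protein, the listed levels ran from a mean of 0.384 CPM (Rps20) to one of 5206 CPM (Rplp1). The mean over 6 libraries was over 1000 CPM in 47 of the 81 genes and over 300 CPM in 65, between 20 and 300 CPM in 6 and under 20 CPM in 10. The lowest were Rps20, Rpl30, Rps15a and Rps27, none of them with enough counts for the test. Rps20, at the head of the small subunit, had 0, 9 and 8 counts in CAF libraries and 0, 0 and 0 in normal libraries. Against a floor of 3 counts over the normal group (0.735 CPM) its pooled CAF level of 1.10 CPM was 1.49-fold higher. The counting error of the 17 counts behind that level is not in this ratio, so it is no lower bound. Rpl30 had 2, 4 and 4 counts in CAF and 9, 1 and 3 in normal libraries. Rps15a had 2, 12 and 13 against 5, 3 and 4 counts, and Rps27 had 1, 27 and 17 against 11, 3 and 3. Rpl21, the other untested gene, had 3, 30 and 31 against 8, 3 and 2 counts. With the scaling factor of each library included, Rps27 was at 1.45, 3.69 and 2.28 CPM in CAF and 4.44, 3.76 and 3.71 CPM in normal libraries. Rpl21 was at 4.35, 4.10 and 4.15 CPM against 3.23, 3.76 and 2.48 CPM. On that scale all CAF libraries lay below all normal ones in Rps27 and above them in Rpl21, with down to 1 count behind a value and no test. As a share of the raw library total the groups overlapped in Rps27. Every one of these genes encodes a core ribosomal protein, and of Rps27 there is the copy Rps27l described above.

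Ribosomal protein genes have many processed copies in the genome, so reads from them can match more than 1 place. In 23 of the 81 genes no stretch of 50 bases within the last 300 bases of the transcript recurred in a transcript of another gene (GENCODE vM21), in 41 over 50% of the stretches did, and the median was 50.6%. All stretches recurred in 4 genes, Rps27, Rpl36a, Rpl10 and Rpl9, which include Rpl36a and Rpl10, first by p among the higher and the lower genes. How the authors' counting treated reads with several matches is not given in the sources used here, so the values of those genes are uncertain. The listed level did not follow this measure: the Spearman correlation over 81 genes was 0.08, as a description, and 6 of the 10 genes under 20 CPM shared no stretch. Rps20, Rps15a, Rpl21, Rpl5, Rpl15 and Rps24 are those 6. The 1 transcript used for each was 3706, 5179, 1856, 2045, 1922 and 1613 bases long. Whether its 3′ end is the one in use in these cells was not tested, so the sharing of these genes is uncertain. GC content had a correlation of 0.49 with the level.

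Only a few rows were named as pseudogenes of these genes, and they were low. Of 5 such rows 3 could be tested. Rpl14-ps1 was at 43.5, 24.2 and 24.9 CPM in CAF and 60.2, 163 and 64.4 CPM in normal libraries. All CAF libraries lay below all normal ones, with a log2 fold change of -1.67 ± 0.49 (edgeR adjusted p = 0.151), while Rpl14 itself was slightly higher in CAF, as given above. Adding these rows to their parent genes left 0 of the 76 called.

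Ribosomal proteins whose symbols the rule misses gave the same picture, and 0 of the 3 given here were called. Fau, whose product is cut from a ubiquitin-like fusion, had a log2 fold change of 0.11 (edgeR adjusted p = 0.927). Rack1, a scaffold on the small subunit, had 0.11 (edgeR adjusted p = 0.924), and Rpl36al, the copy of Rpl36a, had 0.04 (edgeR adjusted p = 0.978).

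The genes that control or accompany ribosome production were not called either. Of 19 translation factors and other TOP mRNAs 0 passed, with a median log2 fold change of 0.10. The smallest p-values there belonged to Gas5, the host RNA of several small nucleolar RNAs, with 0.70 ± 0.32 (edgeR adjusted p = 0.362), and to Naca, which binds nascent chains, with -0.52 ± 0.30 (edgeR adjusted p = 0.490). Of 43 tested ribosome biogenesis genes 0 passed, with a median of -0.04, and of 11 cell division genes 0, with a median of 0.07. Of 18 regulators 0 passed, with a median of -0.01, and 2 had an unadjusted p under 0.05 in edgeR, a share below the 15.3% of all genes. The 2 were Mtor, the kinase itself, at -0.95 ± 0.39 (edgeR adjusted p = 0.301), and Eif4ebp2, a translation inhibitor that mTOR turns off, at -1.16 ± 0.49 (edgeR adjusted p = 0.314). The levels of Mtor were 33.3, 33.3 and 34.6 CPM in CAF and 57.0, 100 and 39.6 CPM in normal libraries, so the spread lay in the normal libraries. All CAF libraries lay below all normal ones in 4 of the 18 regulators, Mtor among them, and above them in 1. Over all genes tested this held for 9.35% and 10.6%.

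Mitochondrial ribosomal protein genes, whose products build a separate ribosome inside mitochondria, had a lower median than the cytosolic ones. Of 67 tested, 0 were called and 5 had an unadjusted p under 0.05 in edgeR, against the 15.3% given above for all genes. Their log2 fold changes were below 0 in 56 and above 0 in 11, with a median of -0.33, where the cytosolic genes had -0.02. The difference between the 2 sets was not tested. All CAF libraries lay below all normal libraries in 11 of the 67 and above in 2, beside the backgrounds of 9.35% and 10.6% given above. Mrps24 was at 125, 160 and 127 CPM in CAF and 316, 278 and 202 CPM in normal libraries (-0.95 ± 0.31; edgeR adjusted p = 0.195). Mrpl42 was at 69.5, 55.9 and 50.0 CPM against 123, 145 and 69.3 CPM (-0.96 ± 0.36; edgeR adjusted p = 0.254). In both, normal library 3, which had the least gland RNA of the normal libraries, was the closest to the CAF libraries. As a share of all counts the mitochondrial set took 0.518%, 0.539% and 0.497% in CAF and 0.503%, 0.562% and 0.474% in normal libraries, ranges that overlap. With gland genes taken out of the total, the shares were 0.522%, 0.544% and 0.500% in CAF and 0.631%, 0.673% and 0.494% in normal libraries. Normal libraries 1 and 2 then lay above all CAF libraries, and normal library 3 below them.

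**Figure D4:**
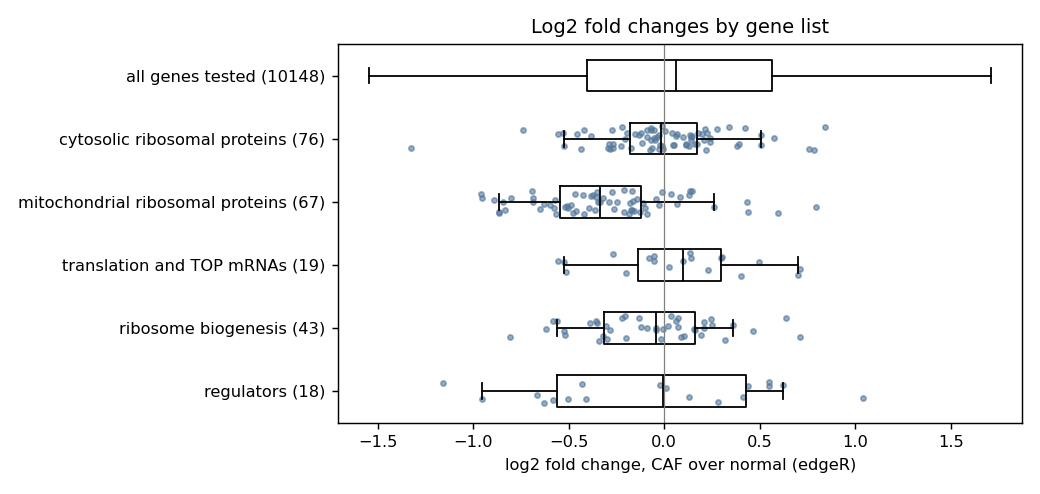
Log2 fold change (CAF over normal, x axis) by gene list, with the number of genes tested in brackets; points are genes, boxes span the middle 50% with the median, and whiskers the 5th to 95th percentile. The 76 cytosolic genes lie closer to 0 than all genes, and 56 of the 67 mitochondrial genes lie below 0.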

How the data were processed

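RNA 3′ ends of 6 mouse libraries were measured (3 CAF, 3 normal), grouped by the labels' cell type. Per the submitters' processing notes the tools were cutadapt, STAR, HTSeq and DESeq2 (no versions), with build mm10; for annotation, strand and molecular identifiers the sources used here say nothing. The values analysed are the raw counts per gene that the authors deposited. The deposited table also holds a normalized signal, a regularized log2 value, and the authors' log2 fold change, p-value and adjusted p-value. Of these only the comparison columns gave results reported here. The normalized signal was read only to derive the authors' scaling factor of each library. The highest count of any gene over the libraries was at least 6.

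The test was edgeR 4.0.16 under R 4.3.3 (filterByExpr defaults, TMM scaling, quasi-likelihood F test on the group term, Benjamini-Hochberg over 10148 genes, threshold 0.05). The fit was checked on simulated data. Approximate standard errors were taken as the log2 fold change over the root of F. DESeq2 1.42.0, limma-voom (limma 3.58.1), other scalings and filters, left-out libraries and covariates served as alternatives. Annotation came from GENCODE vM21 (GRCm38, the same assembly as mm10), with 1 transcript per gene, and start windows from RefSeq GRCm38.p6. Per the labels each library held cells of 1 or 2 mice.

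Named were the 6 genes with the lowest p higher in CAF and the 6 lower, the 4 highest and 4 lowest by mean CPM, all genes of the stalk, 5S, copy and signalling lists, the extremes of other position lists, up to 2 genes of smallest p per related list, and the sort markers. Rpl14, Rpl31, Rpl15, Rpl21 and Rps24 were added after their values were seen. The results of 2 genes that this rule takes are not reported here. The genes and lists were chosen with earlier results of these data known. Floors of 3 counts cover counting error only.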

Additional observations from a re-analysis of the deposited data

How the results depend on the processing

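Under 19 other settings 0 ribosomal protein genes were called in each; the smallest adjusted p in any was 0.132 (Rpl32l, limma-voom), at most 3 genes had an unadjusted p under 0.05, and the median log2 fold change ran from -0.16 to 0.14. For 30 named genes, 527 of 570 values kept their sign and 43 changed it. With 0 ribosomal protein genes called in the main fit and under each setting, none could cross the threshold. The number of genes called over the whole table moved more: 792 with DESeq2, 65 with limma-voom, 194 with library GC as a covariate (added after seeing the data), 0 without both gland-rich normal libraries, and 0 to 1193 with 1 library left out (49, 4 and 29 without CAF libraries 1, 2 and 3, and 0, 6 and 1193 without normal libraries 1, 2 and 3). The cause was not tested, and where few or 0 genes were called over the whole table, 0 ribosomal protein genes called says nothing about stability. Rpl32l, at -1.33, was -0.23 with the GC covariate. Without normal library 2, Rpl39, Rpl22l1 and Rpl10 had an unadjusted p under 0.05, at log2 fold changes of 3.78, 2.79 and -1.07 (edgeR adjusted p = 0.237, 0.177 and 0.271).

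Log2 fold changes changed sign as follows. With library GC as a covariate they were -1.61 for Rpl39, -1.23 for Rpl15 (not among the 30 genes), -0.17 for Rpl22l1, -0.15 for Rpl5, 0.28 for Rpl13a, 0.27 for Rplp2, 0.14 for Rpl11, 0.044 for Rplp0, 0.018 for Rps27l, -0.021 for Rpl3 and -0.066 for Rps27a. Without both gland-rich normal libraries only normal library 3 is left in its group and is assumed to vary like the CAF libraries; the median of all genes was 0.29, and they were -0.18 for Rpl12, 0.13 for Rplp0, 0.082 for Rps4l and 0.044 for Rps27l. Adjusted for mice per library they were 0.0062 for Rplp0 and -0.030 for Rps27a. With scaling factors computed without gland genes they were -0.0028 for Rpl12 and -0.014 for Rpl3, and with a filter of 10 counts in 3 libraries 0.0066 for Rpl13a. With 1 library left out, the values ran from -0.26 to 3.78 for Rpl39, -0.080 to 0.59 for Rpl41, -0.24 to 0.41 for Rpl38, -0.43 to 0.12 for Rplp2, -0.46 to 0.022 for Rps27l, -0.59 to 0.061 for Rps6 and -0.27 to 0.11 for Rpl13a. They ran from -0.25 to 0.098 for Rpl11, -0.18 to 0.13 for Rplp0, -0.088 to 0.14 for Rpl12, -0.092 to 0.28 for Rpl7l1, -0.077 to 0.16 for Rpl3 and -0.017 to 0.43 for Rps4x. The cause was not tested. No paired analysis was possible because the labels number no replicates shared between the groups. The number of libraries and the shallow ones among them limit the precision: the 95% interval lay inside a 2-fold change in 33 of the 76 genes.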
